A study of Mus musculus with 24 samples.

Results

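The nuclear-encoded genes of the mitochondrial respiratory chain were followed through 24 RNA-seq libraries of mouse colorectal tissue. They were every symbol in the expression tables that starts with Nduf, Uqcr or Atp5, or with Cox followed by 4, 5, 6, 7 or 8, together with Sdha, Sdhb, Sdhc, Sdhd and Cycs, leaving out symbols that end in -ps. This gave 93 of 24346 symbols, of which 90 passed a filter on low values (4 or more libraries with an FPKM of 1 or higher). FPKM are fragments scaled to transcript length and to a measure of library size, so levels can be set beside each other between genes. Which measure was used here is not given. The rule uses names alone.

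The respiratory chain sits in the inner mitochondrial membrane. Complex I (NADH dehydrogenase, the Nduf genes) and complex II (succinate dehydrogenase, the Sdh genes) pass electrons to ubiquinone, complex III (the Uqcr genes) passes them on to cytochrome c (Cycs), and complex IV (cytochrome c oxidase, the Cox genes) passes them to oxygen. The proton gradient that results drives ATP synthase (complex V, the Atp5 genes). In the colon, absorptive cells of the upper crypt oxidize butyrate from the lumen through this chain. Some subunits of complexes I, III, IV and V are encoded in mitochondrial DNA, and these are not analysed here.

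Every mouse had received AOM/DSS, that is, the carcinogen azoxymethane together with dextran sulfate sodium, which inflames the colon, so the tissue labelled normal was exposed too. The genotype label is c-MAF_KO (KO) or WT, c-MAF being a bZIP transcription factor, and the titles split it further. There were 3 tumor libraries titled KO-1-hetero, 3 titled KO-8-hetero, 3 titled KO-8-homo, 4 titled WT-young and 1 titled WT-old, and 2 normal libraries under each of these 5 titles. By genotype label the tumors were 9 KO and 5 WT, and the normal tissues 6 KO and 4 WT. The labels do not explain the numbers 1 and 8, give no promoter or cell type for the deletion, and do not say which libraries came from 1 animal or from separate animals, so p-values measure the spread between these libraries, which may be technical.

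Fragment totals are not part of FPKM tables, so the depth of each library is unknown. Maf, the gene named by the genotype label, ranged from 2.62 to 7.40 FPKM in KO tumors, 1.63 to 7.26 in WT tumors, 1.52 to 6.27 in KO normal and 1.37 to 2.82 in WT normal libraries, and KO therefore means the label throughout. Xist, a transcript of the inactive X chromosome, was above 1 FPKM in 6 libraries, and the Y-linked Ddx3y was above 1 FPKM in the other 18. The 6 were all 4 normal libraries of KO-1-hetero and KO-8-hetero, 1 KO-1-hetero tumor and 1 KO-8-hetero tumor, so the share of Xist-positive libraries differs between tissues in these groups. The 3 KO-8-homo tumor, 2 KO-8-homo normal and all 9 WT libraries were Ddx3y-positive. There were 3 libraries that stood apart in ways that touch the members. KO-8-hetero normal 2 had a total of 1016814 FPKM, against 583474 to 745639 in the other normal libraries and 450172 to 612427 in tumors. KO-8-hetero tumor 2 had 861.5 FPKM summed over 10 skeletal muscle markers, against 6.41 to 37.3 in the other 23 libraries. The WT-old tumor had 14.7 FPKM summed over 6 markers of Wnt-driven tumors, below every normal library (19.8 to 39.7), and 2877 FPKM over 8 leukocyte markers, the highest of all.

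The members were abundant transcripts. Their mean over the 24 libraries had a median of 212 FPKM, against 9.44 FPKM for the 13799 genes that passed the filter. Of the 93, 71 averaged at least 100 FPKM, and Cox8a (1035 FPKM), Cox6b1 (1028 FPKM) and Atp5b (965 FPKM) were highest. The least abundant were isoforms of complex IV: Cox8c was listed at 0 in every library, Cox7b2 reached 0.0592 FPKM in 1 library and was listed at 0 in the other 23, and Cox6a2 averaged under 1 FPKM. Transcripts of the members are short, with a median length of 694 nt in the GENCODE annotation (92 of 93 with a length) against 2073 nt for the genes tested.

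Members of every complex were lower in tumors than in normal tissue. With the WT label 71 of 90 members fell and 0 rose (limma, adjusted p below 0.05), where 14.8% of all 13799 genes fell and 15.5% rose. With the KO label 86 fell and 1 rose, where 23.2% of all genes fell and 24.1% rose. The median difference on the log2(FPKM + 1) scale was -0.75 (WT) and -1.005 (KO), beside 0.02 for all genes in each. In linear terms the median member stood at 59.1% of the normal level in WT tumors and at 49.6% in KO tumors. The 71 members that fell with the WT label were all among the 86 that fell with the KO label. In a stricter call that also asked for a difference of at least 1 on the log2 scale, 15 members were called under the WT label and 46 under the KO label. The share of all genes that pass this stricter call was not computed, so these counts have no background beside them. Fewer cells rich in mitochondria and less RNA per cell cannot be told apart in bulk tissue.

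**Figure D1:**
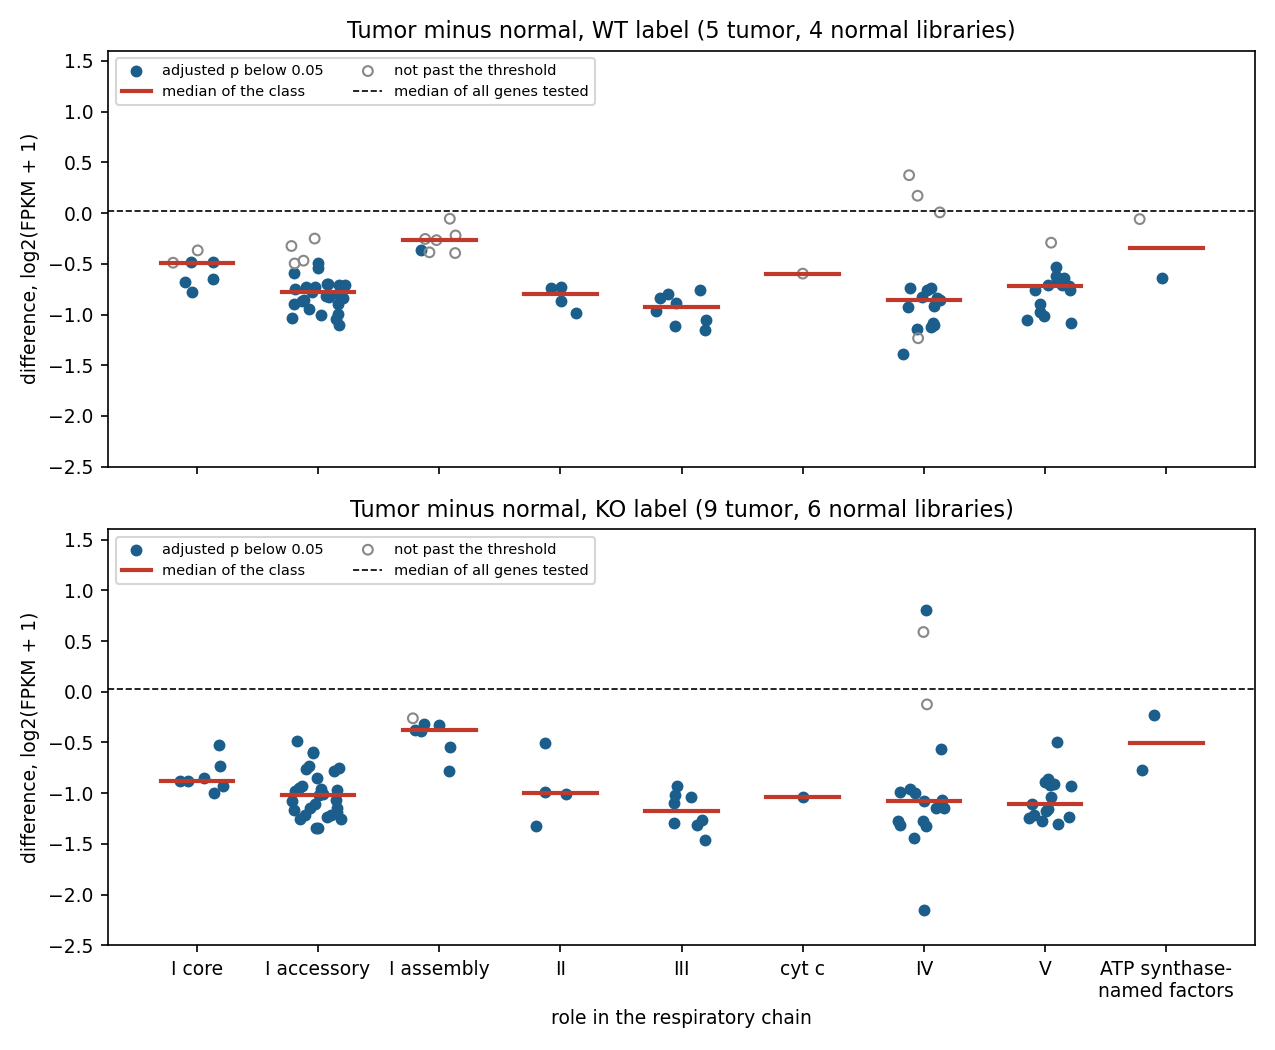
Tumor minus normal difference of each of the 90 members on the log2(FPKM + 1) scale, by role (x axis) and for the WT label (top) and KO label (bottom). Filled points passed adjusted p below 0.05, red bars are class medians, and the dashed line is the median of all genes tested. Nearly all points lie below the dashed line, and the complex I assembly factors lie nearest to it, at medians of -0.27 and -0.38.

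For most members the ranges of tumor and normal libraries did not overlap. Every WT tumor was below every WT normal library for 71 of 90 members, where this held for 10.9% of all genes tested. Every KO tumor was below every KO normal library for 69 members, against 7.05% of all genes. For 51 members all 14 tumors were below all 10 normal libraries, against 3.43% of all genes. Within each title group the median over members of the tumor minus normal difference of mean log2 values, given with no test, was -0.94 for KO-1-hetero, -1.24 for KO-8-hetero and -0.87 for KO-8-homo. It was -0.61 for WT-young and -1.03 for WT-old, the latter from 1 tumor. Between 87 and 88 of the 90 members were below 0 in each title group.

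Complex I holds a core that carries the flavin and the iron-sulfur clusters, a shell of accessory subunits, and factors that assemble it without staying in it. All 29 accessory subunits fell with the KO label and 25 fell with the WT label, at medians of -1.01 and -0.78. Ndufa6, an accessory subunit at the matrix arm, measured 512 and 669.9 FPKM in WT-young normal and 610.4 and 663 FPKM in WT-old normal tissue. WT-young tumors had 274, 285, 286 and 391.6 FPKM of Ndufa6, and the WT-old tumor had 258 FPKM. KO tumors ranged from 203 to 315 FPKM with a median of 267, and KO normal libraries from 482 to 1352 FPKM with a median of 626. No Ndufa6 value of a tumor reached that of a normal library. The difference was -1.04 ± 0.22 (SE, adjusted p = 0.0014) with the WT label and -1.34 ± 0.17 (adjusted p = 4.1e-06) with the KO label. Ndufa5 fell by 1.11 with the WT label and Ndufb8 by 1.34 with the KO label, each among the 2 largest falls of the accessory subunits there.

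All 7 core subunits of complex I fell with the KO label and 5 fell with the WT label, at medians of -0.88 and -0.49. Ndufv2, which binds an iron-sulfur cluster of the electron input module, fell most in both, by 0.78 ± 0.18 (SE, adjusted p = 0.0023) with the WT label and by 1.003 ± 0.14 (adjusted p = 8.5e-06) with the KO label. Ndufs7, which carries the last cluster before ubiquinone, fell by 0.68 and 0.88 in the same order. Ndufs8, another iron-sulfur subunit, fell by 0.93 with the KO label, and its WT difference of -0.49 did not pass (adjusted p = 0.062), though it did without WT-young tumor 4 (-0.55, adjusted p = 0.047) or WT-young normal 2 (-0.66, adjusted p = 0.017). The 7 assembly factors had the smallest differences of any class of complex I, with medians of -0.27 (1 of 7 called) and -0.38 (6 of 7 called). Ndufaf3 fell with both labels, by 0.36 and 0.54, but the WT call was lost when any of 8 of the 9 WT libraries was left out, and its KO difference turned to 0.14 when scaled on ribosomal protein genes. Ndufaf2 fell by 0.78 with the KO label and had a WT difference of -0.39 (adjusted p = 0.11). Ndufaf4 passed with neither label, at -0.06 (adjusted p = 0.85) and -0.26 (adjusted p = 0.16), and the latter passed without KO-8-homo normal 1 (-0.39, adjusted p = 0.03).

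All 4 subunits of complex II fell with both labels. Sdhb, the iron-sulfur subunit, measured 262 and 254 FPKM in WT-young normal and 338 and 302 FPKM in WT-old normal tissue, against 139, 132, 139 and 183 FPKM in the WT-young and 137 FPKM in the WT-old tumors. Sdhb ranged from 267 to 586 FPKM in KO normal libraries (median 292) and, in KO tumors, from 79.2 to 185 FPKM (median 123). The tumor and normal ranges of Sdhb did not overlap. It fell by 0.98 ± 0.22 (SE, adjusted p = 0.002) with the WT label and by 1.32 ± 0.17 (adjusted p = 4.4e-06) with the KO label. The membrane anchors Sdhc and Sdhd fell by 0.87 and 0.73 with the WT label and by 0.99 and 1.01 with the KO label. Sdha, the flavoprotein that oxidizes succinate, fell by 0.73 (adjusted p = 0.0092) with the WT label and by 0.51 (adjusted p = 0.012) with the KO label, where scaling on ribosomal protein genes turned the difference to 0.20. In KO normal libraries Sdha ranged from 83.8 to 199.9 FPKM, and the lowest was KO-8-hetero normal 2, which had the highest value of Sdhb and Sdhc.

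Complex III fell as a whole, with 8 of 8 members called under each label and the largest class medians among complexes of several subunits, -0.92 (WT) and -1.18 (KO). Uqcrh, the hinge protein beside cytochrome c1, measured 1268 and 1098 FPKM in WT-young normal and 1446 and 1285 FPKM in WT-old normal tissue. WT-young tumors had 614, 602, 578 and 741 FPKM of Uqcrh and the WT-old tumor 535 FPKM. KO normal libraries ranged from 1068 to 2918 FPKM (median 1416) and KO tumors from 391.8 to 760.0 FPKM (median 540.3). The tumor and normal values of Uqcrh did not overlap. Its fall was 1.05 ± 0.22 (SE, adjusted p = 0.0015) with the WT label and 1.46 ± 0.18 (adjusted p = 2.2e-06) with the KO label. Uqcrfs1, the Rieske iron-sulfur protein, fell by 1.11 ± 0.18 (SE, adjusted p = 0.00018) and by 1.32 ± 0.14 (adjusted p = 7.3e-07) in the same order. Uqcrb, which lines the ubiquinone side, fell by 1.15 with the WT label.

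Cycs, the electron carrier that also triggers apoptosis when released from mitochondria, passed with the KO label only. It measured 97.1 and 77.5 FPKM in WT-young normal, 156 and 118 FPKM in WT-old normal, 74.4, 71.7, 76.4 and 88.9 FPKM in the WT-young and 51.3 FPKM in the WT-old tumors. WT-young tumor 4 lay above WT-young normal 2, so the WT ranges overlapped. With the KO label Cycs ranged from 113 to 234 FPKM in normal libraries (median 127) and from 27.7 to 127 FPKM in tumors (median 67.1), and 8 of 9 KO tumors were below every KO normal library. The difference of Cycs was -0.60 ± 0.30 (SE, adjusted p = 0.13) with the WT label, and it fell by 1.03 ± 0.24 (adjusted p = 0.0013) with the KO label.

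Complex IV held the largest fall and the only member that rose. Of its 17 members tested, 13 fell with the WT label, and 14 fell and 1 rose with the KO label. Cox6c, a small membrane subunit, fell by 1.44 ± 0.18 (SE, adjusted p = 2.9e-06) with the KO label, and Cox7b fell by 1.14 ± 0.23 (adjusted p = 0.0009) with the WT label. Most of the pairs of isoforms in this complex have a widespread form and a form known from heart and skeletal muscle, lung, testis or low oxygen, and the widespread forms Cox4i1, Cox6a1, Cox6b1, Cox7a2 and Cox8a, with Cox7a2l, a factor of supercomplexes, fell by 0.74 to 1.10 with the WT label and by 0.98 to 1.32 with the KO label. The WT call of Cox4i1 was lost without WT-old normal 1 (adjusted p = 0.055).

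Cox7a1, the isoform of Cox7a known from heart, muscle and brown fat, fell most of all 90 members with each label on the log2(FPKM + 1) scale. It measured 79.1 and 138 FPKM in WT-young normal and 120.1 and 118 FPKM in WT-old normal tissue, against 30.9, 30.9, 49.7 and 68.5 FPKM in the WT-young and 40.1 FPKM in the WT-old tumors. KO normal libraries ranged from 78.5 to 349 FPKM (median 139) and KO tumors from 15.4 to 44.9 FPKM (median 32.5), without overlap. Its fall was 1.39 ± 0.36 (SE, adjusted p = 0.0064) with the WT label and 2.15 ± 0.28 (adjusted p = 5.3e-06) with the KO label. Without the WT-old libraries the WT call was lost (adjusted p = 0.074). Of the markers of other cells, 10 of 10 for smooth muscle fell with each label, at medians of -2.63 and -2.21, and of the 4 fat cell markers tested 2 fell under the WT label and 4 under the KO label. Of all genes, 14.8% (WT) and 23.2% (KO) fell. Of 4 skeletal muscle markers tested 0 passed with the WT label (limma, median -0.04), and 1 fell and 1 rose with the KO label (median 0.81). The smooth muscle markers summed to 222 to 3555 FPKM in WT tumors (222 to 489 in WT-young and 3555 in the WT-old tumor), 1151 to 9024 in WT normal, 317 to 1613 in KO tumors and 1837 to 5884 in KO normal libraries. The fat cell markers summed to 12.2 to 34.0, 37.2 to 191, 11.5 to 118 and 97.5 to 274 FPKM in the same order, and no marker of either list was at 0 in every library. Their part in the fall of Cox7a1 was not tested.

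Ndufa4, first described in complex I and now assigned to complex IV, did not follow the other subunits. It measured 731 and 293 FPKM in WT-young normal, 617 and 372 FPKM in WT-old normal, 605, 602, 518 and 437 FPKM in the WT-young and 287 FPKM in the WT-old tumors. KO normal libraries ranged from 362 to 716 FPKM (median 515) and KO tumors from 347 to 626 FPKM (median 470.5). The ranges overlapped under both labels. The differences were 0.01 ± 0.26 (SE, adjusted p = 0.99) and -0.12 ± 0.20 (adjusted p = 0.63), and with the values scaled on ribosomal protein genes the KO difference turned to 0.60 (adjusted p = 0.011). As a share of the members' summed FPKM in a library, which does not depend on how libraries are scaled, Ndufa4 made up 1.57% to 3.32% in tumors and 0.915% to 2.02% in normal tissue.

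Cox6b2, an isoform of Cox6b known from testis, was the only member that rose. WT normal libraries had 8.77, 3.54, 2.89 and 1.80 FPKM, WT-young tumors 7.38, 4.86, 7.01 and 3.41 FPKM and the WT-old tumor 3.78 FPKM, with full overlap. KO normal libraries ranged from 2.95 to 5.53 FPKM (median 3.97) and KO tumors from 5.58 to 11.4 FPKM (median 7.74), and no KO tumor was as low as any KO normal library. The difference was 0.37 ± 0.28 (SE, adjusted p = 0.32) with the WT label and 0.80 ± 0.22 (adjusted p = 0.0049) with the KO label. With the KO arm limited to KO-8-homo libraries the call was lost (adjusted p = 0.17). Without WT-young normal 1, the highest WT normal library, the WT difference was 0.73 and passed (adjusted p = 0.033), and without the WT-old libraries it was -0.05. Cox6b1, the widespread form, was more abundant by far, and Cox6b2 made up 0.347% to 1.62% of the sum of both in tumors and 0.134% to 0.644% in normal libraries.

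The other tissue-restricted isoforms were low, and 1 library decided the highest values of several. Cox8b, a heart and muscle isoform, had a median of 6.47 FPKM in KO normal libraries (3.50 to 15.3) and 1.81 FPKM in KO tumors (0.260 to 25.2), and it fell by 1.28 ± 0.44 (SE, adjusted p = 0.021) with the KO label, a call that was lost without KO-8-hetero normal 2 (-1.06, adjusted p = 0.065). With the WT label Cox8b did not pass, though in linear terms it stood at 29.2% of the normal level, against 37.7% for Cox7a1. Cox6a2, another muscle isoform that did not pass the filter, lay between 0.0905 and 0.560 FPKM in 8 KO tumors and at 15.4 FPKM in the ninth. Ndufa4l2, a paralog of Ndufa4 known to be induced by low oxygen, lay between 1.05 and 2.82 FPKM in 8 KO tumors and at 53.2 FPKM in the same ninth library. That library was KO-8-hetero tumor 2 in all 3 cases, the one with 861.5 FPKM over the skeletal muscle markers, and the part of muscle tissue in these values was not tested. Ndufa4l2 passed with neither label, at 0.17 ± 0.66 (SE, adjusted p = 0.86) and 0.59 ± 0.52 (adjusted p = 0.36). Cox4i2, the isoform of Cox4 known from lung and low oxygen, was at 5.42, 1.97, 1.98 and 0.854 FPKM in WT normal libraries and 0.700 to 1.48 FPKM in WT tumors, and it fell by 0.73 ± 0.24 (adjusted p = 0.024) with the WT label and by 0.56 ± 0.19 (adjusted p = 0.018) with the KO label. The WT call of Cox4i2 was lost without WT-young normal 1 (-0.40, adjusted p = 0.13) or WT-young tumor 3 (-0.69, adjusted p = 0.053), and both calls were lost with libraries rescaled to equal totals (adjusted p = 0.088 and 0.35), scaled on short abundant genes (0.10 and 0.36) or scaled on ribosomal protein genes (0.14 and 0.74).

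**Figure D2:**
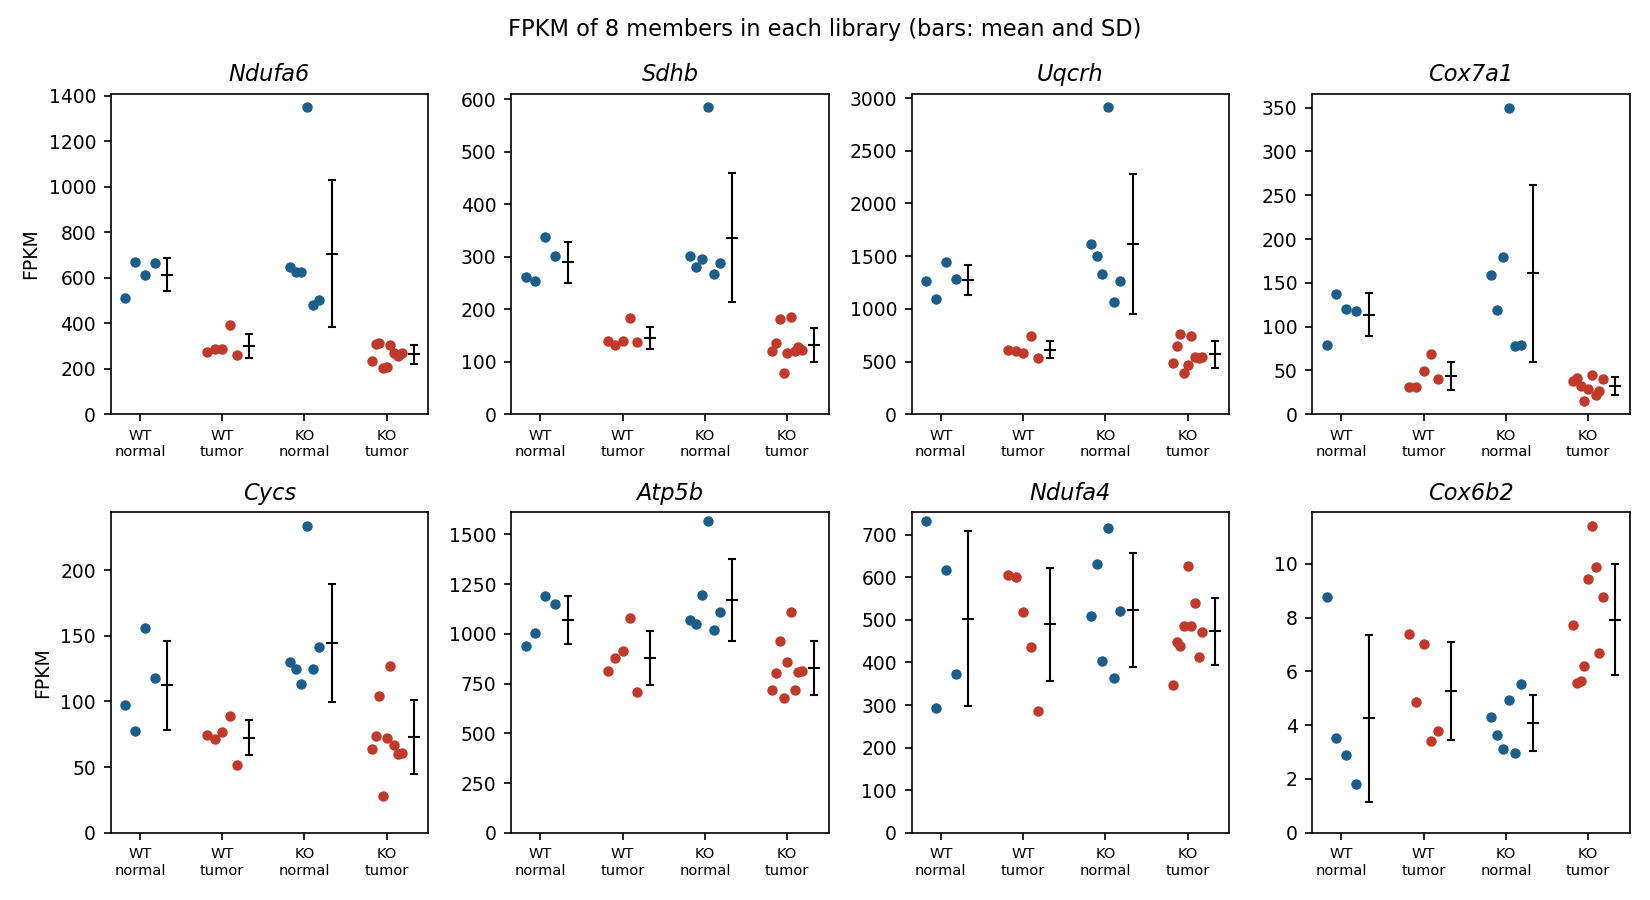
FPKM (y axes, linear, from 0) of 8 members in each library, by genotype label and tissue, with normal libraries in blue, tumors in red and bars for mean and SD. Ndufa6, Sdhb, Uqcrh and Cox7a1 are separated between tissues, Ndufa4 is not, and Cox6b2 is higher in KO tumors. The highest KO normal point of Ndufa6, Sdhb, Uqcrh, Cox7a1, Cycs and Atp5b is KO-8-hetero normal 2.

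In ATP synthase 14 of 15 members fell under the WT label and 15 under the KO label, at medians of -0.72 and -1.11. Atp5j2, a subunit of the membrane sector, fell by 1.01 ± 0.22 (SE, adjusted p = 0.002) with the WT label and by 1.31 ± 0.18 (adjusted p = 7e-06) with the KO label. Atp5d, part of the rotating central stalk, fell by 1.08 and 1.15, Atp5g1, a gene of the proton-carrying ring, by 1.06 and 1.11, and Atp5o, at the joint of the peripheral stalk, by 0.90 and 1.28. Without the WT-old libraries the WT call of Atp5j2 was lost (adjusted p = 0.068), and those of Atp5d and Atp5g1 held (0.038 and 0.037). Atp5b, the catalytic beta subunit, fell least. It measured 938 and 1003 FPKM in WT-young normal, 1192 and 1151 FPKM in WT-old normal, 815, 878, 916 and 1079 FPKM in the WT-young and 707 FPKM in the WT-old tumors. With the KO label normal libraries ranged from 1017 to 1569 FPKM (median 1092) and KO tumors from 680.0 to 1110 FPKM (median 808), so the ranges overlapped under both labels. The difference of Atp5b was -0.29 ± 0.16 (SE, adjusted p = 0.16) with the WT label and it fell by 0.49 ± 0.12 (adjusted p = 0.0028) with the KO label, but under quantile normalization its differences turned to 0.16 and 0.16. Atp5b made up 3.81% to 4.64% of the members' summed FPKM in tumors and 2.29% to 3.18% in normal libraries, without overlap. Of the pair named like ATP synthase subunits without being part of the enzyme, Atp5sl, also known as Dmac2, a factor of complex I assembly, fell by 0.64 and 0.78, and Atp5s fell by 0.23 (adjusted p = 0.048) with the KO label but lost the call without any of 10 of the 15 KO libraries and stood at 0.21 with libraries rescaled to equal totals.

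The balance between complexes shifted little. Complex V made up 29.7% to 31.6% of the members' summed FPKM in tumors and 28.5% to 31.3% in normal libraries, and complex IV 27.5% to 29.4% and 28.0% to 30.7%, with overlap in both. Complex III made up 12.20% to 13.31% in tumors and 13.28% to 14.81% in normal libraries, ranges that overlapped narrowly. The core of complex I took 3.46% to 4.003% in tumors and 2.80% to 3.35% in normal libraries, and its assembly factors 0.350% to 0.473% and 0.236% to 0.320%, without overlap in either case.

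How far the members fell depended on the scale set between libraries. Total FPKM was lower in tumors, and short abundant transcripts had lower medians there: 369 genes that are no members, under 1000 nt long and averaging at least 100 FPKM, had medians of -0.30 (WT) and -0.52 (KO), and 89 ribosomal protein genes had medians of -0.35 and -0.73, with 8 and 72 of these called lower. With every library rescaled to the same total, all genes shifted up, to medians of 0.28 (WT) and 0.44 (KO), and the members had medians of -0.46 and -0.51, with 60 called lower under the WT label and 69 lower and 1 higher under the KO label. Of all genes, 36.5% (WT) and 63.9% (KO) were then called in either direction. Scaled on ribosomal protein genes, 43 members fell under the WT label, and 44 fell and 5 rose under the KO label (Cox6b2, Ndufa4, Atp5s, Ndufaf1 and Ndufaf4), at medians of -0.40 and -0.29 where all genes stood at 0.33 and 0.61. Under this scaling 28.2% (WT) and 69.8% (KO) of all genes were called in either direction. Relative to the median of all genes, the members' median lay between -0.78 and -0.44 (WT) and between -1.03 and -0.54 (KO) over the 6 scalings run. These 6 include the values as deposited and median-ratio scaling, whose factors lay between 0.986 and 1.024 and so hardly changed the deposited values. In 38 members the fall was called under both labels in all 6 scalings: 14 accessory subunits and 1 core subunit of complex I (Ndufv2), Sdhb, 5 members of complex III, 10 of complex IV and 7 of complex V, and no assembly factor. The share of all genes that meet this joint condition was not computed, so the count has no background beside it.

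**Figure D3:**
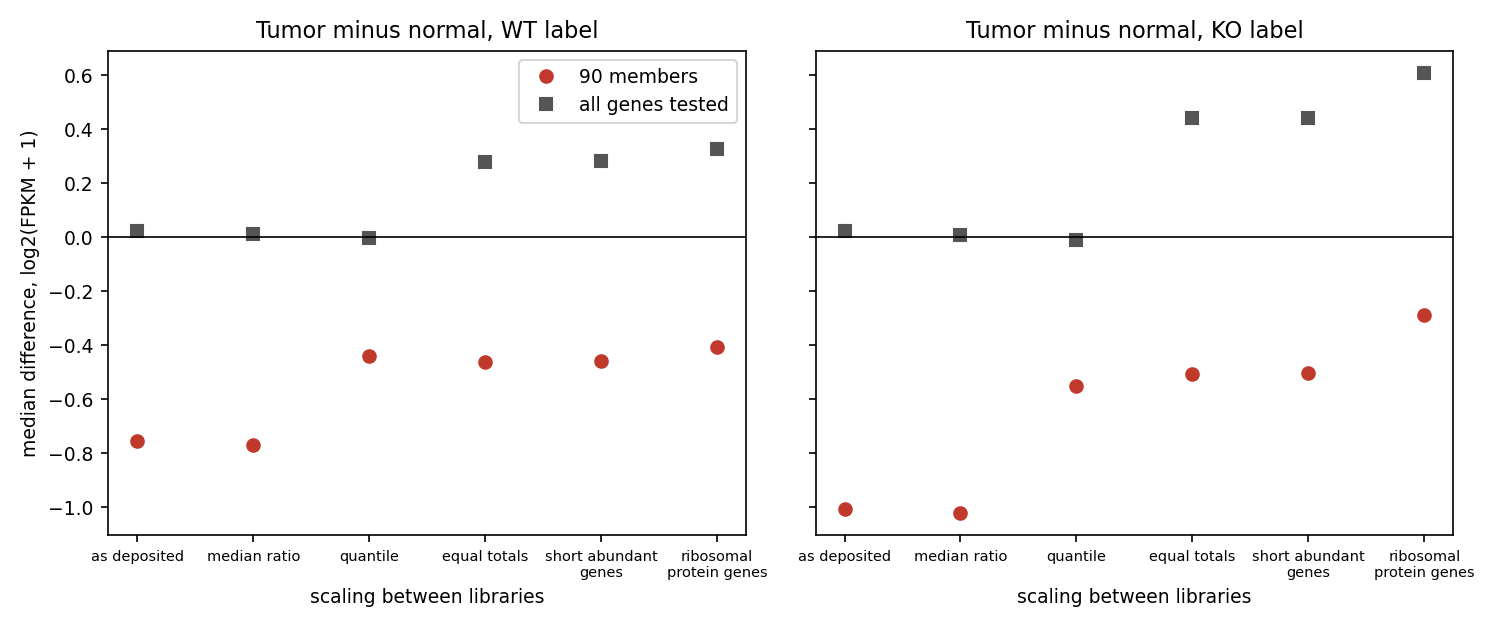
Median tumor minus normal difference on the log2(FPKM + 1) scale of the 90 members (red circles) and of all genes tested (grey squares) under 6 scalings between libraries, for the WT label (left) and KO label (right). The members' median stays below that of all genes and below 0 under each scaling, from -0.77 to -0.40 (WT) and from -1.02 to -0.29 (KO).

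The members' summed FPKM made up 3.25% to 4.61% of total FPKM in tumors and 5.02% to 6.74% in normal libraries, so all 14 tumors were below all 10 normal libraries. Set against the summed FPKM of ribosomal protein genes, the ratio was 0.176 to 0.292 in tumors and 0.256 to 0.380 in normal libraries, with overlap. Within title groups only KO-8-hetero overlapped: tumor 3 had the highest ratio of all tumors at 0.292, and the normal libraries had 0.269 and 0.256. In the KO-8-homo group, where all 5 libraries were Ddx3y-positive, the ratio was 0.223, 0.245 and 0.230 in tumors and 0.380 and 0.335 in normal tissue.

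**Figure D4:**
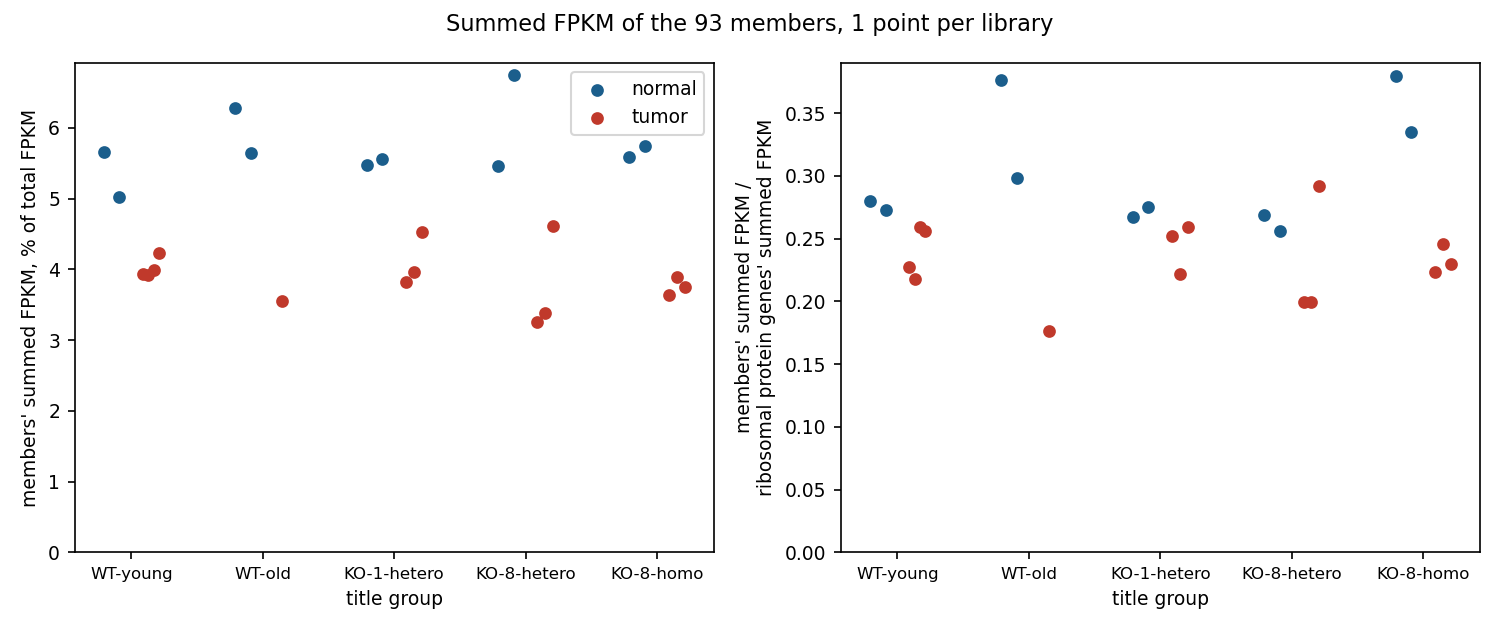
Summed FPKM of the 93 members as a percentage of total FPKM (left) and as a ratio to the summed FPKM of ribosomal protein genes (right), 1 point per library, by title group, with normal tissue in blue and tumors in red. On the left every tumor (3.25% to 4.61%) lies below every normal library (5.02% to 6.74%), and on the right the ranges overlap.

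The differences were also set out by transcript length and without single libraries. Members under 1000 nt had medians of -0.81 (WT) and -1.01 (KO) and those of 1000 nt or more -0.70 and -0.98, while other genes had -0.06 and -0.14 under 1000 nt and 0.05 and 0.06 above. KO-8-hetero normal 2 exceeded the mean of the other normal libraries by a median of 0.91 over the shorter and 0.63 over the longer members, by 0.34 over other genes under 1000 nt and by -0.04 over longer ones. Without that library 84 members fell and 1 rose with the KO label, where 44.6% of all genes were called in either direction, and the median moved from -1.005 to -0.88. With the KO arm limited to KO-8-homo libraries, all Ddx3y-positive, 76 fell and 0 rose (median -0.87), and with Ddx3y as a covariate 82 fell and 1 rose (median -0.81). In the same order, 21.9% and 34.6% of all genes were called in either direction. Without the 3 WT-old libraries 25 members fell with the WT label, against 71, at a median of -0.61, so most of the 71 WT calls were lost there. The share of all genes called in either direction was 19.4% without them, against 30.4%. Fragments shared with processed pseudogenes make single values uncertain, since the GENCODE annotation holds 14 pseudogenes named after the members and none of these names is in the tables.

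KO and WT libraries were compared within each tissue to ask whether the genotype label moved these genes. In tumors 0 of 90 members passed (limma, smallest adjusted p = 0.55), where 0.00725% of all genes did. An unadjusted p below 0.05 was found for 8.31% of all genes and for 2 members. These were Cox4i2, with a difference of 0.45 (95% interval 0.04 to 0.86), and Cox6b2, with 0.52 (0.04 to 1.00), both higher in KO tumors. The median difference of the members was -0.08, and the 95% intervals reached a median of 0.34 to each side. This median was -0.02 without WT-young tumor 4, -0.03 without KO-8-hetero tumor 1, -0.14 without KO-8-hetero tumor 3 and -0.13 without the WT-old tumor. It was -0.19 with Ddx3y as a covariate (21 members with an unadjusted p below 0.05), -0.17 for KO-8-homo libraries alone (20 members), -0.03 under quantile normalization, -0.0024 with equal totals, 0.0048 when scaled on short abundant genes and 0.08 when scaled on ribosomal protein genes. The unadjusted share of all genes was not computed for the alternatives, so the counts of 21 and 20 have no background beside them. In normal tissue 0 members passed, as did 0% of all genes. An unadjusted p below 0.05 was found for 4.67% of all genes and for 4 members. The smallest belonged to Ndufaf2, with 0.46 (0.10 to 0.82), Ndufc2, an accessory subunit of complex I, with 0.42 (0.02 to 0.82), and Atp5f1, of the peripheral stalk of ATP synthase, with 0.34 (0.02 to 0.66). The median over members was 0.14, and 79 of 90 were above 0, as the short abundant genes were (median 0.14). That median was 0.03 without KO-8-hetero normal 2, 0.09 without WT-young normal 2, 0.22 without KO-8-homo normal 1 and 0.25 without the WT-old libraries. It turned to -0.10 with Ddx3y as a covariate, to -0.10 for KO-8-homo libraries alone and to -0.05 when scaled on ribosomal protein genes, and was 0.06 under quantile normalization, 0.02 with equal totals and 0.03 when scaled on short abundant genes.

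The tumor minus normal difference was lower (more negative or less positive) with the KO label for 83 of the 90 members, where this held for 49.1% of all genes. The median interaction of the members was -0.22. The median interaction was -0.10 without KO-8-hetero normal 2, -0.10 with Ddx3y as a covariate, -0.09 for KO-8-homo libraries alone and -0.39 without the WT-old libraries. It was -0.10 under quantile normalization and -0.02 both with equal totals and when scaled on short abundant genes, and turned to 0.14 when scaled on ribosomal protein genes, where all genes stood at 0.30. The interaction itself passed for 0 members (limma, smallest adjusted p = 0.99), as for 0% of all genes. An unadjusted p below 0.05 was found for 0 members and for 4.74% of all genes. The nearest were Ndufa9 at -0.48 (95% interval -0.97 to 0.01), Atp5c1 at -0.45 (-0.92 to 0.02) and Ndufv1 at -0.40 (-0.83 to 0.03). Short abundant genes had a median interaction of -0.21, so the members stood at -0.01 relative to these.

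**Figure D5:**
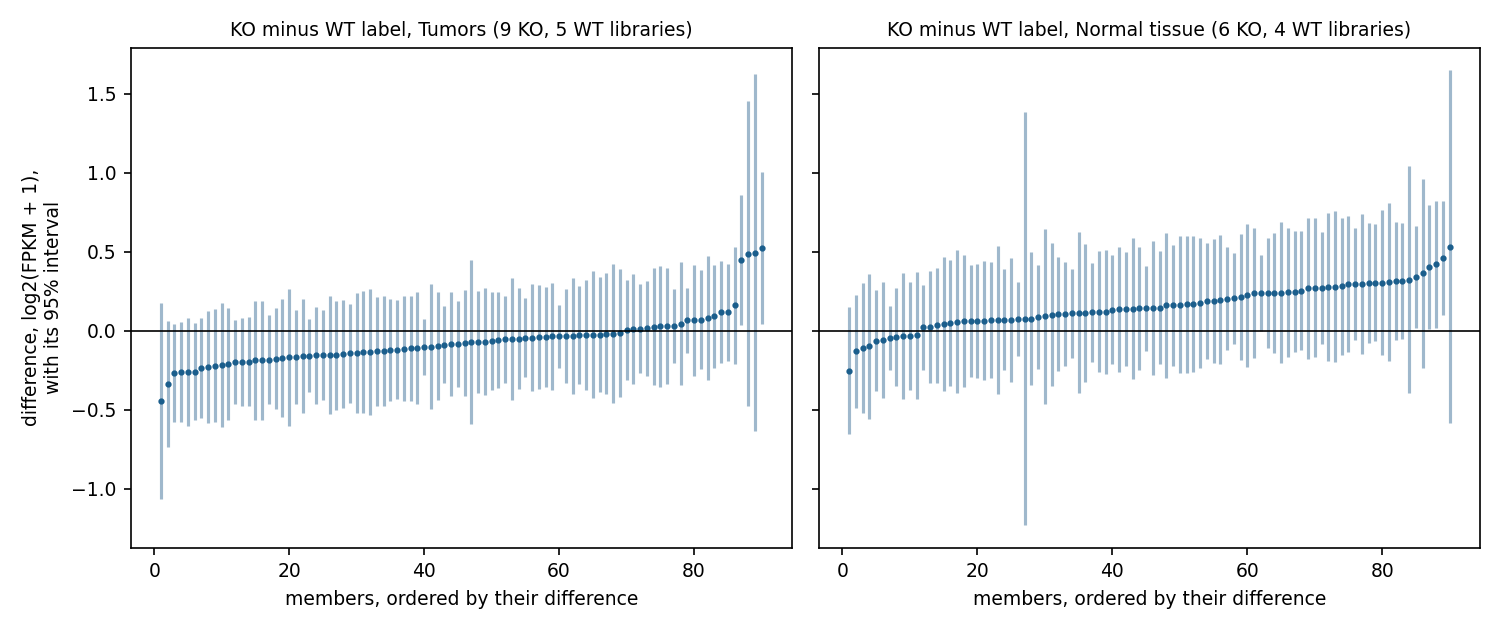
KO minus WT difference of the 90 members on the log2(FPKM + 1) scale in tumors (left) and normal tissue (right), ordered by size along the x axis, with 95% intervals from limma as vertical lines. All but 2 intervals in tumors and all but 4 in normal tissue include 0, and the medians are -0.08 and 0.14.

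Among single groups of tumors, 0 of 90 members passed in any of the 4 comparisons. Against WT-young tumors, KO-1-hetero tumors had a median of -0.03 over members, where 2.88% of all genes passed. An unadjusted p below 0.05 was found for 0 members and for 19.1% of all genes. Leaving out 1 library moved this median from -0.16 (without KO-1-hetero tumor 3) to 0.08 (without KO-1-hetero tumor 1), through 0.03 without WT-young tumor 4, and it was -0.17 with Ddx3y as a covariate. It was above 0, at 0.03 to 0.07, under quantile normalization, with equal totals and when scaled on short abundant or ribosomal protein genes. The smallest p belonged to Uqcrc2, a core protein of complex III, with a difference of -0.39 (95% interval -0.85 to 0.06), Cox4i2 with 0.37 (-0.12 to 0.85) and Ndufaf7, a methyltransferase of complex I assembly, with -0.16 (-0.37 to 0.05). KO-8-hetero tumors had a median of -0.11, where 0.00725% of all genes passed. An unadjusted p below 0.05 was found for 6.96% of all genes and for 2 members (Cox4i2 at 0.55 and Atp5sl at -0.32), with Cox6b2 next at 0.60 (-0.01 to 1.21). The median was 0.05 without KO-8-hetero tumor 1, -0.30 without KO-8-hetero tumor 3 (24 members with an unadjusted p below 0.05) and -0.05 without WT-young tumor 4. With Ddx3y as a covariate this median was -0.24 (17 members), and when scaled on short abundant or ribosomal protein genes it was -0.04. KO-8-homo tumors had a median of -0.23, where 0.457% of all genes passed. An unadjusted p below 0.05 was found for 10.1% of all genes and for 7 members, 6 of them lower. Cox4i2 at 0.70 (0.22 to 1.19), Atp5g3, a gene of the proton-carrying ring, at -0.45 (-0.84 to -0.05) and Ndufs3, a core subunit of complex I, at -0.38 (-0.72 to -0.04) had the smallest p. Leaving out 1 library gave medians of -0.26 to -0.16, quantile normalization -0.09, equal totals -0.07, scaling on short abundant genes -0.04 and scaling on ribosomal protein genes -0.007. These comparisons share the WT-young tumors. KO-8-homo minus KO-8-hetero tumors had a median of -0.11, where 0.0507% of all genes passed. An unadjusted p below 0.05 was found for 0 members and for 5.80% of all genes. Cox8b (-1.14, interval -2.56 to 0.27), Ndufa8 (-0.33, -0.76 to 0.11) and Ndufa4l2 (-1.25, -2.97 to 0.46) had the smallest p. Here the median was 0.09 without KO-8-hetero tumor 3, -0.30 without KO-8-hetero tumor 1 (17 members with an unadjusted p below 0.05) and -0.07 without KO-8-homo tumor 1, and it was above 0, at 0.02 to 0.05, with Ddx3y as a covariate and under 4 other scalings (quantile, equal totals, short abundant and ribosomal protein genes). For the counts of 24 and 17 members under alternatives the unadjusted share of all genes was not computed.

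Genes of neighbouring pathways, on lists put together with earlier results of these data known, were counted the same way. Of all genes tested, 14.8% fell and 15.5% rose under the WT label, and 23.2% fell and 24.1% rose under the KO label. Of 38 subunits and factors of the chain outside the name rule, 20 fell under the WT label and 29 under the KO label and 0 rose, at medians of -0.38 and -0.54. They included Surf1, an assembly factor of complex IV (-1.24 and -1.17), and Cyc1, the cytochrome of complex III (-1.03 and -1.20). Of 16 genes of the TCA cycle and pyruvate dehydrogenase 14 and 15 fell and 0 rose, led by Suclg1 of succinyl-CoA ligase (-1.24 and -1.37), at medians of -0.58 and -0.67. Of 77 mitochondrial ribosomal proteins 15 fell under the WT label and 51 under the KO label, at medians of -0.25 and -0.38. Of 14 genes of the outer membrane, import and chaperones 3 and 6 fell, among them Vdac3, a pore of the outer membrane (-0.93 and -1.18). Of 18 glycolysis genes 4 and 8 fell, and 1 rose with each label, the lactate exporter Slc16a3 (2.44 and 2.14). Of 19 regulators of mitochondrial biogenesis 6 and 8 fell and 2 and 4 rose. Tfam, which packages and transcribes mitochondrial DNA, fell by 0.47 and 0.62, Polg2, the accessory subunit of the mitochondrial DNA polymerase, fell by 0.80 and 1.02, and Myc rose by 0.54 and 1.12. Among 9 hypoxia genes 1 and 2 fell and 0 and 1 rose. Each of these lists had all its members tested except the regulators, of which 20 of 21 symbols were found and 19 tested. Under the WT label the share that fell was near that of all genes for mitochondrial ribosomal proteins, outer membrane genes, glycolysis and hypoxia.

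Some markers of the cells that the tissue can hold moved as well. The shares of all genes to set beside them are 14.8% (WT) and 23.2% (KO) lower, and 15.5% and 24.1% higher. Of 10 markers of absorptive colonocytes 5 fell under the WT label and 6 under the KO label, at medians of -1.48 and -2.08, and their sum was 792 to 3047 FPKM in WT tumors, 5772 to 19802 in WT normal, 617 to 4095 in KO tumors and 4655 to 10792 in KO normal libraries. Of 6 general epithelial markers 0 passed with the WT label (limma) and 2 fell with the KO label. Their sums overlapped between tissues, from 3928 to 10182 FPKM in WT tumors (median 6576) and from 5666 to 9846 in WT normal libraries (median 8417). In KO tumors they ran from 4406 to 8467 FPKM (median 5590) and in KO normal libraries from 7102 to 13867 (median 7796). Of 8 leukocyte markers 3 rose with each label, and their sum was 356 to 2877 FPKM in WT tumors, 255 to 464 in WT normal, 691 to 2608 in KO tumors and 380 to 863 in KO normal libraries. Of 6 markers of Wnt-driven tumors 4 and 5 rose. Of 7 pericyte markers 0 passed with the WT label and 1 rose with the KO label. The part of these cells in the fall of the respiratory chain genes was not tested.

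Promoters of the members were read from RefSeq (GRCm38.p6, from 250 bases before to 50 after each annotated start), which held a promoter for 77 of the 93, matched by symbol or synonym. Motifs of 5 factors known to act on respiratory genes were searched on both strands. GCGCANGCG, the core of the NRF1 site, was found in 23 of 77 members (29.9%) and in 7.03% of the 27025 genes with a promoter in the table. AANATGGCG, a YY1 site, was in 11 members (14.3%) against 2.76% of all genes, TGACGTCA, a CREB site, in 5 (6.49%) against 2.03%, TCAAGGTCA, a site of estrogen-related receptors, in 2 (2.60%) against 0.466%, and CCGGAAGTG, an ETS site, in 2 (2.60%) against 2.25%. No motif holds the letters of another, and since the NRF1 letters are nearly the same on both strands, 1 stretch can match on each. By role, the NRF1 letters were in 7 of 14 promoters of complex V, 8 of 27 of the accessory and 0 of 5 of the core subunits of complex I, 2 of 3 of complex II and 1 of 14 of complex IV. Members with the NRF1 letters had medians of -0.73 (WT) and -1.03 (KO) over 23 members, and those without had -0.78 and -1.003 over 53. Stretches of 100 bases upstream of the start are shown for the member of complexes I (accessory), II, IV and V with the largest KO fall among those with an upstream NRF1 match, for Cycs, and for Ndufa4, which did not fall and had no match to the 5 motifs in the stretch shown. They read 5′ to 3′ on the gene's strand, with the motif in capitals. All 6 lie on the minus strand, Ndufa5 at chr6:24527663-24527762, Sdhd at chr9:50603875-50603974, Cox6a1 at chr5:115349022-115349121, Atp5h at chr11:115420007-115420106, Cycs at chr6:50566577-50566676 and Ndufa4 at chr6:11907451-11907550.
Ndufa5: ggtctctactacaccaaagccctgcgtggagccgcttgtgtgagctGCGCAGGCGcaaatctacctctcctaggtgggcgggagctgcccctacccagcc
Sdhd: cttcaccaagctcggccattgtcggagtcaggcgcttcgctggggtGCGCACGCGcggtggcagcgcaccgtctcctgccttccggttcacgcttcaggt
Cox6a1: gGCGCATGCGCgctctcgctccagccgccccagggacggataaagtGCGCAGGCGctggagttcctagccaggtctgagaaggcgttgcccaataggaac
Atp5h: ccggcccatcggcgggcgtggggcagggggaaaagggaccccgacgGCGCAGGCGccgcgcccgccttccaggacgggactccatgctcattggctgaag
Cycs: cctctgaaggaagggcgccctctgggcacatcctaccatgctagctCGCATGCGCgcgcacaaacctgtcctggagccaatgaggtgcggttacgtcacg
Ndufa4: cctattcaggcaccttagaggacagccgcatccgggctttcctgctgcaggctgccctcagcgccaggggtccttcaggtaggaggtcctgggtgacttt
A match is a description of these letters and shows no binding, and a missing match says only that the letters are not in the stretch searched.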

How the data were processed

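RNA of mouse colorectal tissue was sequenced from stranded mRNA libraries, per the labels' protocols. The authors deposited 1 table of FPKM per library, per the file headers; the submitters' processing notes name TopHat2 2.1.1, Bowtie2 2.2.8, SAMtools 0.1.18, Cuffdiff 2.2.1 and the build mm10, while the annotation and the normalization option are not given in the sources used here. The files hold no counts, so no count test was used. Values were taken as log2(FPKM + 1), a pseudocount of 1, which understates the change of low genes. A gene entered the tests with an FPKM of 1 or higher in 4 or more libraries (13799 genes). limma 3.58.1 (R 4.3.3) with an intensity trend was fitted to all 24 libraries, once with 4 groups (label by tissue) and once with the 10 title groups, two-sided, with Benjamini-Hochberg adjustment over all 13799 genes and a threshold of 0.05. A difference is called a rise or fall where it passed. The fit was tested on simulated data. Python 3.11.15, pandas 2.3.3 and matplotlib 3.10.9 were used for the rest.

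Members and gene lists were chosen with earlier results of these data known. Named in the text are complex II, Cycs and the isoform families of complex IV, in each role the 2 largest falls and rises past the threshold, in other comparisons the 3 smallest p, the 3 most abundant members and those under 1 FPKM throughout, and up to 3 genes by p from other lists. Members named as exceptions in addition (Ndufaf4, Ndufaf1, and Atp5h for its promoter) were chosen after their values were seen. Alternatives were other pseudocounts, filters and scalings, a Ddx3y covariate, a replicate block, subsets of groups and leaving out each library. Scalings to equal totals, on short abundant genes and on ribosomal protein genes were added after seeing the data.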

Additional observations from a re-analysis of the deposited data

Results flagged for a closer look

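Only the members named by the rule, Ndufaf1, Ndufaf4 and the members' sum (also per ribosomal protein sum) were looked at. Of 209 quantities per label and tissue, in groups of 4 to 9 libraries, 45 had 1 library far from the rest of its group by Dixon's criterion, where chance alone flags about 1 in 20. Most came from 1 library, KO-8-hetero normal 2, which was the highest KO normal library in 29 and the lowest in 1. Its members summed to 68573 FPKM, against 40879 in the next library. Of complex I it stood apart in Ndufa5 (422 FPKM), Ndufa6 (1352 FPKM), Ndufa8 (238 FPKM), Ndufa9 (341 FPKM), Ndufaf3 (34.4 FPKM), Ndufb8 (859 FPKM), Ndufc2 (494 FPKM), Ndufs3 (208 FPKM), Ndufs7 (305 FPKM) and Ndufv1 (269.8 FPKM). Of complex IV it stood apart in Cox4i1 (2120.4 FPKM), Cox6a1 (2136 FPKM), Cox6a2 (1.31 FPKM), Cox6b1 (2588 FPKM), Cox6c (2649 FPKM), Cox7a1 (349 FPKM), Cox7a2 (1047 FPKM) and Cox8a (2105 FPKM). Of ATP synthase it stood apart in Atp5b (1569 FPKM), Atp5c1 (1112 FPKM), Atp5d (867 FPKM), Atp5j2 (1997 FPKM) and Atp5o (1235 FPKM), and of the rest in Cycs (234 FPKM), Sdhb (586 FPKM), Sdhc (336 FPKM), Uqcrfs1 (361 FPKM) and Uqcrh (2918 FPKM). In the same library Sdha was far below the other KO normal libraries, at 83.8 FPKM.

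WT-young tumor 4 was far above the other WT tumors in 7 members: Cox6c (725 FPKM), Cox7b (286 FPKM), Ndufa6 (391.6 FPKM), Ndufa8 (137 FPKM), Sdhb (183 FPKM), Uqcrb (489.5 FPKM) and Uqcrc2 (233 FPKM). KO-8-hetero tumor 2, the library with skeletal muscle transcripts, was far above the other KO tumors in Cox6a2 (15.4 FPKM), Cox8b (25.2 FPKM) and Ndufa4l2 (53.2 FPKM). Single flags were Cox7b2 in KO-8-homo tumor 2 (0.0592 FPKM, all other KO tumors at 0), Atp5s in WT-young normal 1 (7.89 FPKM), and, in the WT-old tumor, Atp5sl (26.3 FPKM, highest), Ndufc2 (104 FPKM, lowest) and Ndufaf4 (7.11 FPKM, lowest).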

How the results depend on the processing

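The counts of members called in the KO against WT comparisons, the interaction and the comparisons of single tumor groups were 0 under every alternative run. For tumor against normal with the WT label, 71 members were called, 43 when scaled on ribosomal protein genes (chosen after seeing the data), 15 with a difference of at least 1 on the log2 scale, and 25 without the WT-old libraries, which leaves fewer samples. The share of all genes called was 30.4% as deposited, 28.2% when scaled on ribosomal protein genes and 19.4% without the WT-old libraries. With the KO label 87 were called, 49 when scaled on ribosomal protein genes and 46 with a difference of at least 1. There the share of all genes called was 47.2% as deposited and 69.8% when scaled on ribosomal protein genes. For a difference of at least 1 no share of all genes was computed under either label. Leaving out 1 library at a time gave 61 to 74 (WT) and 85 to 88 (KO). The replicate block gave 53 (WT) and 85 (KO), but same-numbered tumor and normal libraries did not deviate together (correlations from -0.16 to 0.35 over 8 pairs), so the numbers were not taken as pairs.

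Over the members named by the rule, with Ndufaf1 and Ndufaf4, 2311 values kept direction and call over the alternatives, 139 lost the call, 15 gained it and 61 changed sign. The sign changes of these members follow, with WT values before KO values, and the cause was not tested. Under quantile normalization Atp5b turned to 0.16 and 0.16 and Ndufa4 to 0.46 (KO). With libraries rescaled to equal totals Atp5b turned to 0.003 and 0.0071, Atp5s to 0.19 and 0.21, Ndufaf7 to 0.0187 and 0.14, Ndufaf1 to 0.0517 and 0.13, Ndufaf4 to 0.21 and 0.19, and in KO Ndufa4 to 0.37 and Ndufa8 to 0.0145. Scaled on short abundant genes Atp5b turned to 0.0088 and 0.0136, Atp5s to 0.20 and 0.21, Ndufaf7 to 0.0238 and 0.15, Ndufaf1 to 0.0576 and 0.14, Ndufaf4 to 0.22 and 0.20, and in KO Ndufa4 to 0.38 and Ndufa8 to 0.0209. Scaled on ribosomal protein genes Atp5b turned to 0.0613 and 0.23, Atp5s to 0.25 and 0.39, Ndufaf7 to 0.0728 and 0.34, Ndufaf1 to 0.10 and 0.33, Ndufaf4 to 0.26 and 0.39, Ndufc2 to 0.027 (WT), and in KO Ndufa4 to 0.60, Ndufa8 to 0.23, Ndufaf3 to 0.14, Ndufs3 to 0.19 and Sdha to 0.20. Without the WT-old libraries the WT difference turned to -0.0467 for Cox6b2, -0.23 for Ndufa4l2 and 0.24 for Ndufaf4. Ndufa4 turned to -0.0074 (WT) under median-ratio scaling, to -0.11 (WT) with the replicate block and to 0.12 (KO) with KO-8-homo libraries alone. Leaving out 1 library, WT differences ranged from -0.10 to 0.0285 for Atp5s, from -0.22 to 0.22 for Ndufa4, from -0.13 to 0.40 for Ndufa4l2 and from -0.28 to 0.0384 for Ndufaf4. Without fragment totals, the depth behind low members such as Cox6b2 and Cox4i2 is unknown.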
